A study of Mus musculus with 15 samples.

Results

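The upstream flank described here is a stretch of mouse chromosome 11 (mm9) that lies outside the α-globin domain, on the side away from the globin genes. It was taken as all restriction fragments of the α-globin capture tables whose midpoint falls in its interval of 380 kb. This gave 832 fragments, from position 31700060 to 32079920, of the 778244 fragments that both α-globin tables hold and of the 145875 on chromosome 11. All 832 are in both tables, cover 379395 bases and have a median length of 314.5 bases. They were summed into 38 bins of 10 kb, each named below by its first position in Mb, and also into 76 bins of 5 kb. The flank begins 102.3 kb from the captured promoters and ends 482.3 kb from them.

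NG Capture-C cuts cross-linked chromatin, joins the ends that lie together in the nucleus and enriches the products that contain a chosen fragment, here the promoters of Hba-a1 and Hba-a2, so a read in the flank counts a contact between an α-globin promoter and that place. In red cell precursors these promoters sit in a small self-interacting domain with a cluster of enhancer-like elements, R1, R2, R3, Rm and R4, and the domain is flanked by sites of the insulator protein CTCF. Chromatin beyond such a domain is usually contacted less than the distance alone would give. Going away from Hba-a1 past Hba-x, an embryonic globin gene, the coding genes of the GRCm38.p6 RefSeq table are in order Nprl3, which hosts several of the elements, Mpg, a DNA repair glycosylase, Rhbdf1, Snrnp25, a spliceosome protein, Il9r, the interleukin-9 receptor, Nsg2, 4930524B15Rik, Cpeb4, an RNA-binding regulator of translation, Bod1, Stc2, a secreted stanniocalcin, Chac2 and Asb3. That table is of another build than the contact data, so bins were not placed in genes or between them.

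The 15 libraries form 9 groups. Control, R1R2_KO (R1 and R2 deleted on the same background) and R2R3_KO (R2 and R3 deleted) have 3 libraries each, named biological replicates. R1_KO, R2_KO, R3_KO, Rm_KO and R4_KO, each without 1 element, and ES cells have 1 library each. The fetal liver groups are erythroid cultures of strain F1 C57Bl6/CBA from E12.5 embryos, control included. Cultures grew for 5 to 7 days before Ter119-bearing cells were removed and differentiation ran for 18 hours. The ES library is of E14 cells, strain 129/Ola. Its protocol text is that of fetal liver, so the sources used here do not give its culture. Strain, cell type and library therefore cannot be told apart in it. The animals or litters behind the replicates are unknown here, so each p-value reflects only how these samples vary, and contacts between DNA fragments offer no marker by which to check the cell type. Control, R1R2_KO and R2R3_KO share 1 table. The single knockouts and ES cells are in another that was tabulated apart and holds no control.

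Chromosome 11 reads more than 2 kb from the viewpoints numbered 41413 to 88666 in the replicated libraries, 235235 to 399610 in the single knockouts and 533323 in ES cells, of which 2165 to 5014, 10853 to 18839 and 53732 lay in the flank. Read counts in approximate element blocks were low where the labels name that element as deleted. R1 kept 22.5% to 27.6% and R2 9.45% to 12.9% of the control mean in R1R2_KO. In R2R3_KO, R2 kept 9.65% to 10.3% and R3 5.96% to 10.6%. R1_KO, R2_KO and R3_KO kept 41.9%, 19.0% and 31.5% at their own element. Low reads alone do not mark a deletion, since ES cells, which are not labelled as deleted, had 19.8%, 21.4% and 35.5% at R1, R2 and R3, and R3 in R1R2_KO had 59.1% to 69.6%. Rm and R4 were not checked in this way.

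Values were scaled per 100000 chromosome 11 reads more than 2 kb from the viewpoints, called the chr11 scale, and separately per 100000 chromosome 11 reads over 500 kb away, called the far scale. The choice matters because the far reads are themselves a share of the chromosome that moved with genotype. They made up 26.6% to 30.6% of chr11 reads in control, 39.4% to 41.1% in R1R2_KO, 36.8% to 37.8% in R2R3_KO, 27.6% to 33.1% in the single knockouts and 31.5% in ES cells. Over the 391 chromosome 11 bins of 10 kb that could be tested, those with at least 90 reads over the 9 replicated libraries, the median log2 change on the chr11 scale was 0.58 in R1R2_KO and 0.34 in R2R3_KO. On the far scale it was 0.07 and -0.07.

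In control erythroid cells the flank did not thin out steadily with distance. Contact was high next to the domain, low through the middle and high again at the far end. Zones were drawn on these values after they were seen, for description and without any test. The inner zone has 5 bins, from 32.03 Mb to the near edge, the middle zone 24 bins, from 31.79 to 32.03 Mb, and the outer zone 9 bins, from the far edge to 31.79 Mb, which lie 392 to 482 kb from the promoters. On the chr11 scale the mean of the 3 controls per bin ran from 80.2 to 254 in the inner zone, from 19.3 to 75.1 in the middle zone and from 115 to 334 in the outer zone.

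The flank bin with the most control reads was the 31.73 Mb bin, near the far end, with 397, 321 and 283 per 100000 chr11 reads in the 3 control libraries. The 31.74 Mb bin followed with 266, 284 and 305. The 32.06 Mb bin, at the near end, had 236, 280 and 247. The 31.74 Mb bin overlapped the 32.06 Mb bin in its control values, and every control value of the 31.73 Mb bin was above those of the 32.06 Mb bin, although both lie more than 300 kb further from the promoters. No single fragment made up these levels: the leading fragment held 8.19%, 8.65% and 10.2% of the control reads of its bin. The outer zone ran on past the edge of the flank, where the 31.69 Mb bin just outside had a control mean of 114 and the outermost bin of the flank 153. At the other edge the 32.07 Mb bin inside had 253 and the next bin outside, on the slope of the domain, 905.

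**Figure D1:**
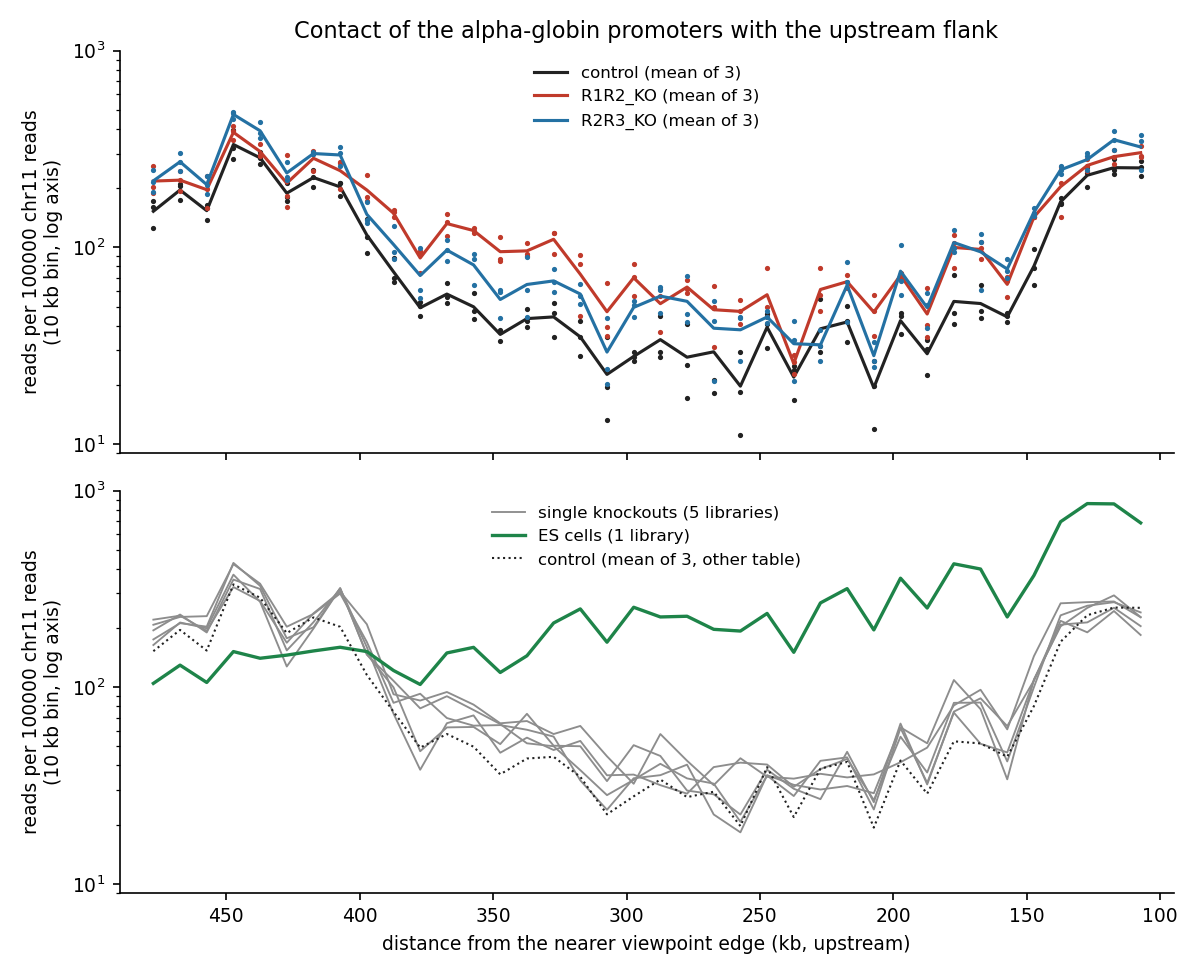
Reads per 100000 chr11 reads in each 10 kb bin (log axis) against distance from the nearer viewpoint edge in kb, with lines for group means and points for libraries above, and the 5 single knockouts and the ES library below. Erythroid libraries dip through the middle of the flank and are high at both ends, while the ES line declines over most of the flank and crosses below the erythroid lines at the far end.

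Removal of R1 and R2 went with more flank contact as a share of chromosome 11 reads, most of all in the middle zone. The whole flank held 3816, 3806 and 3713 per 100000 chr11 reads in control and 5655, 5122 and 5099 in R1R2_KO. All 3 R1R2_KO libraries lay above all controls. The log2 change was 0.49 (SE 0.06, edgeR quasi-likelihood test, adjusted p = 1.74e-07 over 274 windows of 380 kb), and the two-sided exact permutation test gave p = 0.1, the smallest that 3 against 3 libraries allow. With the far reads as scale the groups overlapped. Control had 12470, 14294 and 13914 and R1R2_KO 13755, 12933 and 12933, and the log2 change was -0.037 (SE 0.09, edgeR adjusted p = 0.789, beside 20.1% of windows called either way). The rise on the chr11 scale was shared by much of the chromosome, since 36.5% of its windows of this width were called higher.

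By bin, 19 of 38 rose in R1R2_KO on the chr11 scale and none fell (edgeR, adjusted p under 0.05), against 34.0% of all chromosome 11 bins tested that were called higher and 4.35% lower. The median log2 change was 0.71 in the flank and 0.58 over all bins. In 23 bins all 3 R1R2_KO libraries lay above all controls and in none below. Per far reads 8 bins lay wholly above control and 5 wholly below. Such bins were counted in the flank alone, so these counts do not set it apart from the chromosome. The rises called on the chr11 scale formed a block of 11 adjoining bins from 31.78 to 31.89 Mb, and the middle zone held 16 of the 19. Far reads as scale left 4 bins higher, the 31.81, 31.82, 31.83 and 31.85 Mb bins, beside 4.60% of all bins, and 1 was lower, beside 8.95%.

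The highest change was in the 31.83 Mb bin. It held 36.9, 37.8 and 33.4 per 100000 chr11 reads in control and 113, 87.5 and 84.7 in R1R2_KO, with no overlap. The log2 change was 1.42 (SE 0.27, edgeR adjusted p = 4.22e-06), and 0.89 on the far scale (SE 0.27, adjusted p = 0.0129). The 31.82 Mb bin went from 47.5, 58.8 and 43.2 to 118, 121 and 126, a log2 change of 1.28. The 31.85 Mb bin went from 46.1, 51.8 and 34.8 to 118, 118 and 93.0, a log2 change of 1.31. These bins lie in the slope between the outer zone and the floor of the middle zone. Deeper in the middle zone, the 31.88 Mb bin and the 31.97 Mb bin rose by 1.30 and 1.31 on the log2 scale, from 27.7, 29.4 and 26.5 to 56.4, 71.0 and 82.7 and from 11.9, 19.6 and 26.5 to 57.5, 35.5 and 47.5. Neither passed on the far scale (edgeR adjusted p = 0.0794 and 0.177), and the 31.97 Mb bin did not pass on the chr11 scale without R1R2_KO replicate 1, where its log2 change was 1.11.

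The 5 bins that changed least in R1R2_KO were among those rich in control contact. The control libraries enter both the contact level and the change, so this is a description only. The 5 with the lowest log2 changes were the 31.74, 32.05, 31.71, 32.06 and 31.75 Mb bins, from 0.10 to 0.21 on the chr11 scale, none past the test, and from -0.42 to -0.31 on the far scale. Of these the 31.74 Mb bin passed as lower on the far scale (log2 change -0.42, SE 0.15, edgeR adjusted p = 0.0336). Its chr11-scale values of 294, 336 and 291 in R1R2_KO overlapped the controls. A bin poor in control contact could also change little. The 31.94 Mb bin had 25.0, 23.8 and 16.7 in control and a chr11-scale log2 change of 0.24 (SE 0.43).

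A fit of the flank bins alone, with each library's flank reads as its size, showed which bins differed from the flank as a whole. In R1R2_KO 7 of 38 bins (18.4%) took a larger part of the flank, the 31.79, 31.81, 31.82, 31.83, 31.84, 31.85 and 31.88 Mb bins, and 1 (2.63%), the 31.74 Mb bin, a smaller one (edgeR). The count was 4 without R1R2_KO replicate 3 and 5 without control replicate 2. The 5 calls on the far scale became 2, 3 and 3 without R1R2_KO replicates 1, 2 and 3 and 1 without control replicate 3. Without control replicate 1 they were 1 higher and 3 lower, and the calls against the flank total 4 higher and 3 lower.

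Removal of R2 and R3 went with a rise of similar size over the flank as a whole, and no bin was set apart from the flank total. The 3 R2R3_KO libraries held 5501, 5370 and 5233 per 100000 chr11 reads, all above control. The change was 0.51 in log2 (SE 0.06, edgeR adjusted p = 4.11e-07, exact permutation p = 0.1), where 28.8% of windows were called higher. Per 100000 far reads they held 14964, 14206 and 13915, a log2 difference of 0.084 (SE 0.09, edgeR adjusted p = 0.603, beside 10.9% of windows called either way). Per the headers the R2R3_KO columns repeat the sample numbers of R1R2_KO. The sources do not say whether they come from a run of their own. If so, run and genotype cannot be told apart.

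By bin, 15 of 38 rose in R2R3_KO on the chr11 scale and none fell, beside 12.8% of all chromosome 11 bins tested called higher and 1.53% lower, with a median log2 change of 0.55 in the flank and 0.34 over all bins. In 24 bins the 3 libraries lay above all controls. Per far reads 5 bins lay wholly above control and 1 wholly below. The chromosome was not counted in this way, so these counts do not set the flank apart from it. The rises called on the chr11 scale comprised 5 of 9 outer, 7 of 24 middle and 3 of 5 inner bins. The longest block was 5 adjoining bins from 32.00 to 32.05 Mb, at the near end. The count was 8 without R2R3_KO replicate 1 or 2, 9 without control replicate 2 and 5 without control replicate 3. With the far scale edgeR called none of the 38 in either direction, 2 had an unadjusted p under 0.05, and 1.02% of all bins were called higher and 4.60% lower. Against the flank total edgeR called none (0%), with 3 at an unadjusted p under 0.05. The counts at unadjusted p have no share over the chromosome beside them, so they do not set the flank apart.

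The 32.00 Mb bin changed most in R2R3_KO, from 46.1, 40.6 and 72.5 to 99.5, 94.7 and 123 per 100000 chr11 reads, with no overlap (log2 change 0.98, SE 0.24, edgeR adjusted p = 0.00171). The 32.03 Mb bin went from 64.6, 78.5 and 97.6 to 149, 144 and 159, a log2 change of 0.91, and was close to that level in R1R2_KO too, at 143, 142 and 143. The 32.01 Mb bin rose by 0.90, and did not pass without R2R3_KO replicate 2. The 31.90 Mb bin, at 17.1, 40.6 and 25.1 in control and 71.9, 41.6 and 45.9 in R2R3_KO, had a log2 change of 0.96 and did not pass without R2R3_KO replicate 1 (0.66), control replicate 1 (0.70) or control replicate 3 (0.90). The 31.92 Mb bin had 0.94 and did not pass. These 5 had far-scale log2 changes of 0.47 to 0.56, none past the test. The lowest were the bin starting at 31950001 and the 31.93, 32.05, 31.75 and 31.78 Mb bins, at -0.26 to 0.35, none past the test, all of them below 0 on the far scale.

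**Figure D2:**
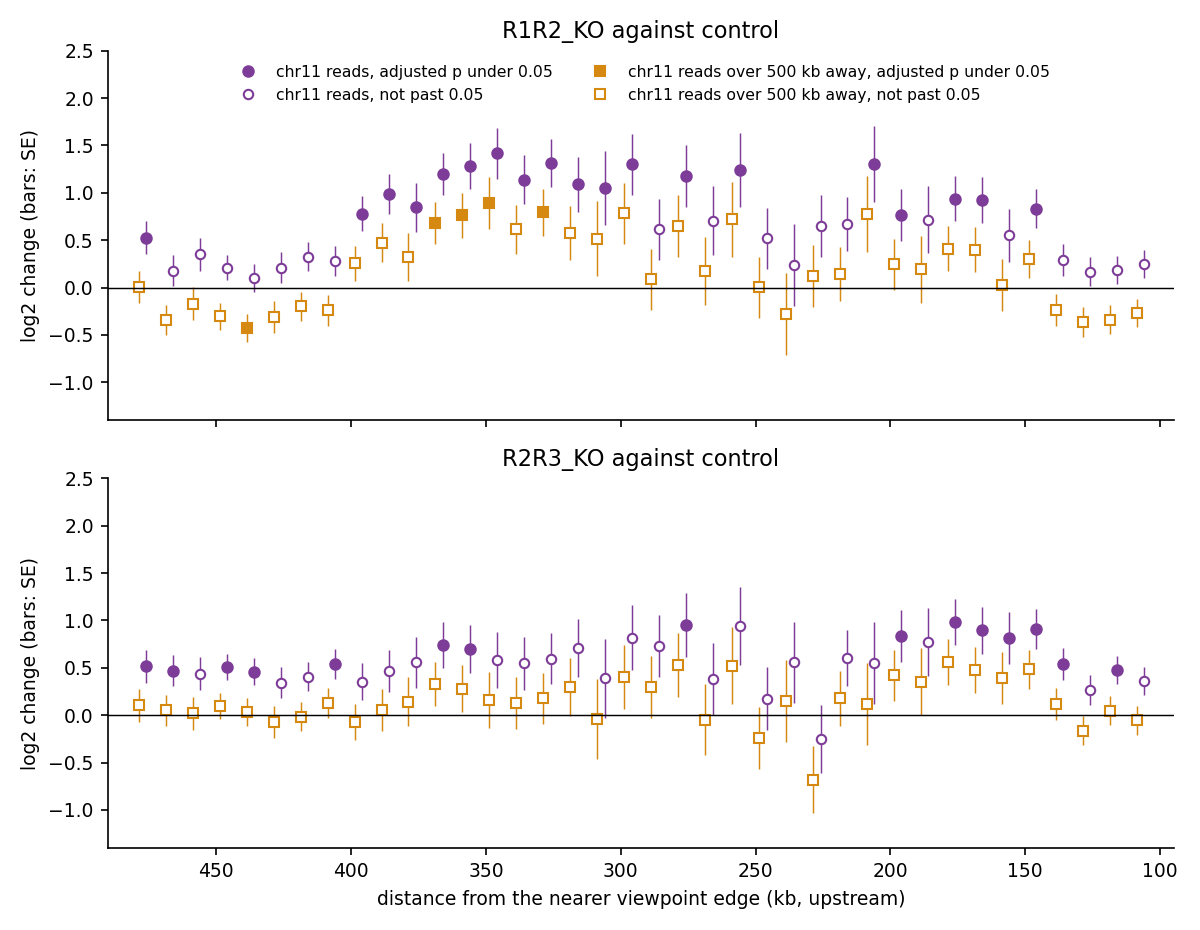
Log2 change against control (bars: SE) of the 38 flank bins by distance from the viewpoint in kb, on the chr11 scale (circles) and the far scale (squares), filled where the edgeR adjusted p was under 0.05. In R1R2_KO the changes form a hump between about 300 and 400 kb and dip below 0 at both ends on the far scale. Nearer the viewpoint they scatter, and the 31.92 and 31.97 Mb bins there reach 1.24 and 1.31 on the chr11 scale. In R2R3_KO they scatter around a median of 0.55 on the chr11 scale and 0.13 on the far scale.

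Set against each other, the double knockouts were close in total flank contact, and the share of bins called in either direction was not above that of the chromosome on either scale. The log2 difference of R2R3_KO from R1R2_KO over the whole flank was 0.02 (SE 0.06, edgeR adjusted p = 0.850, exact permutation p = 0.8), beside 27.0% of windows called either way. Of the 38 bins 2 were lower in R2R3_KO on the chr11 scale, beside 6.65% of all bins, and none higher, beside 3.84%. These were the 31.83 Mb bin (59.0, 43.5 and 60.4 in R2R3_KO, log2 difference -0.84, SE 0.27, edgeR adjusted p = 0.0269) and the 31.85 Mb bin (59.0, 66.3 and 77.3, log2 difference -0.72, adjusted p = 0.0414). In both all R2R3_KO libraries lay below all R1R2_KO libraries. With the far scale these 2 no longer passed. There the 31.73 and 31.74 Mb bins were higher in R2R3_KO (log2 differences 0.40 and 0.46, adjusted p = 0.0481 and 0.0263), beside 4.60% of all bins, and none was lower, beside 4.35%. On the chr11 scale the 31.73 Mb bin had 413, 353 and 389 in R1R2_KO and 487, 485 and 452 in R2R3_KO.

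Against the flank total 5 bins (13.2%) took a smaller part in R2R3_KO than in R1R2_KO, the 31.79, 31.82, 31.83 and 31.85 Mb bins and the bin starting at 31950001, and none (0%) a larger one. Leaving out 1 library moved this count to 2 without R2R3_KO replicate 1, 0 without R1R2_KO replicate 1 and 3 without R1R2_KO replicate 3. The 2 calls on the chr11 scale were 0 without R2R3_KO replicate 1 or 2 or R1R2_KO replicate 1 or 3 and 1 without R1R2_KO replicate 2. The 2 calls on the far scale were 0 or 1 without any single library of either group. The remaining bins with the highest differences, 31.94, 31.71 and 32.06 Mb, and with the lowest, 31.97 and 31.87 Mb, did not pass on either scale.

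The zones show this layout by library. They were drawn on these same values, so the separations by zone are a description and not independent support. In the middle zone control had 898, 1010 and 891 per 100000 chr11 reads, R1R2_KO 1907, 1775 and 1808 and R2R3_KO 1480, 1429 and 1492, 3 ranges without overlap. Far-scale values were 2933, 3795 and 3338 in control, 4639, 4480 and 4587 in R1R2_KO and 4027, 3781 and 3968 in R2R3_KO, so that only R2R3_KO overlapped control. The outer zone moved the other way in R1R2_KO once the far scale was used: 6448, 6558 and 6910 in control, 6107, 5621 and 5201 in R1R2_KO, and 7026, 6945 and 6460 in R2R3_KO. The inner zone had 945, 1049 and 978 per 100000 chr11 reads in control, 1237, 1121 and 1240 in R1R2_KO and 1438, 1316 and 1311 in R2R3_KO, and on the far scale R1R2_KO at 2832 to 3145 overlapped control at 3088 to 3942.

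Ratios within a library are free of the scale. The outer zone held 5.86, 4.61 and 5.52 times as many reads per bin as the middle zone in control, 3.51, 3.35 and 3.02 times in R1R2_KO and 4.65, 4.90 and 4.34 times in R2R3_KO. R1R2_KO lay apart from both, and R2R3_KO overlapped control. The middle zone was drawn where control was low, so these ratios between zones also describe the values that set the zones. The inner zone held 4.99 to 5.27 times the reads per bin of the middle zone in control, 3.03 to 3.29 times in R1R2_KO and 4.22 to 4.66 times in R2R3_KO, without overlap. As a share of flank reads the middle zone had 24.7% ± 1.63 in control, 34.6% ± 0.872 in R1R2_KO and 27.4% ± 1.02 in R2R3_KO (SD, n = 3 each).

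**Figure D3:**
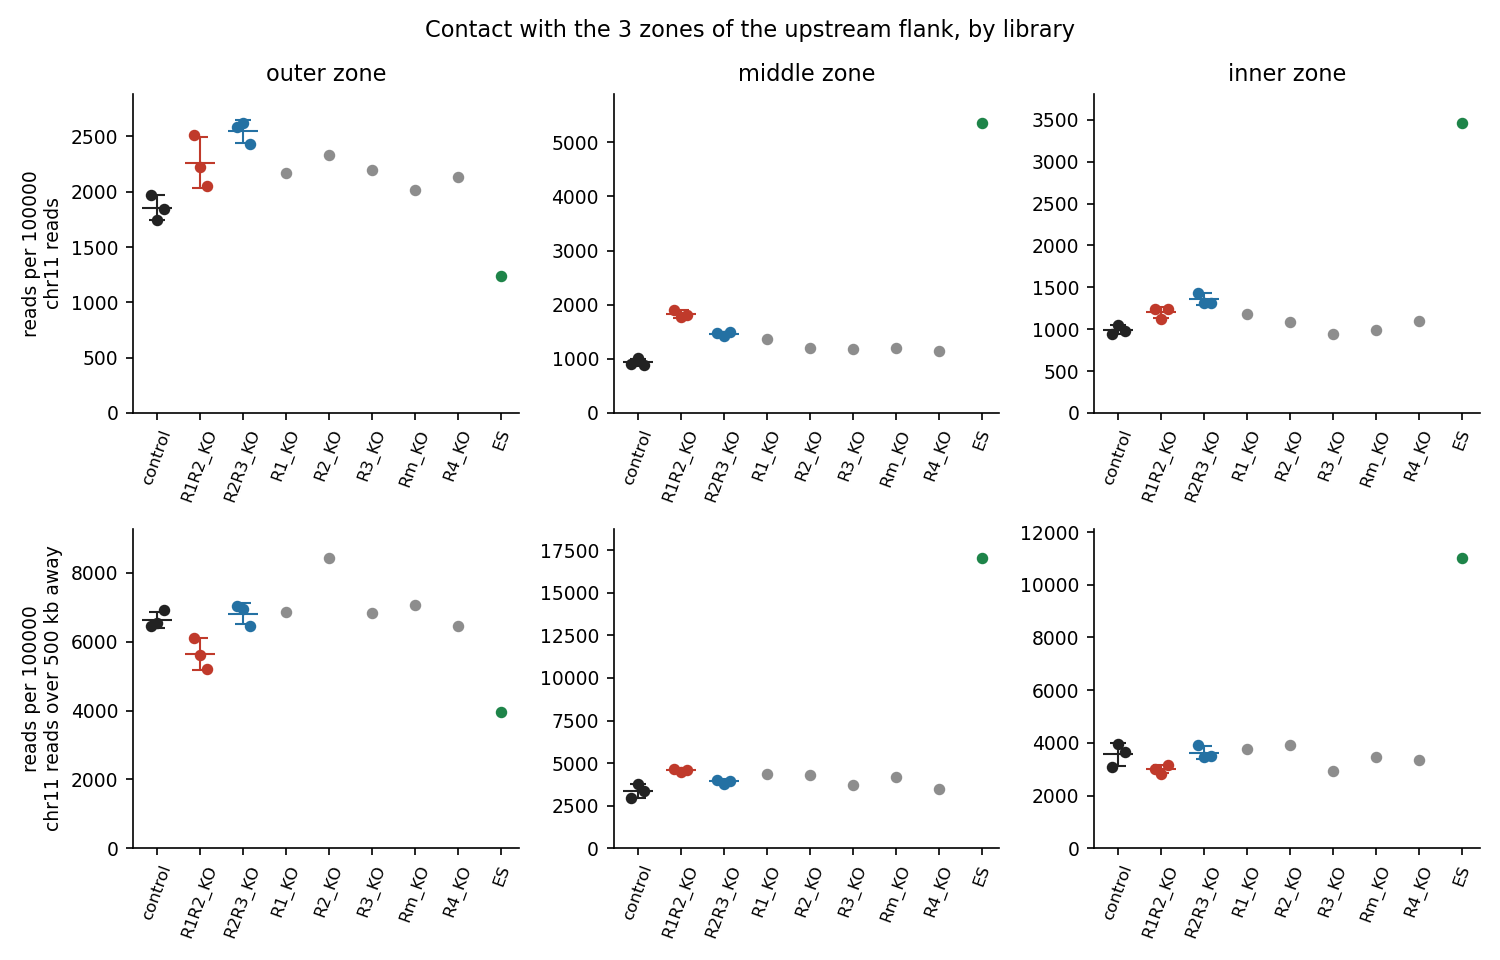
Reads per 100000 chr11 reads (upper row) and per 100000 chr11 reads over 500 kb away (lower row) in the outer, middle and inner zone, one point per library, with mean and SD where a group has 3 libraries. The middle zone separates R1R2_KO from control in both rows, and the ES point is the lowest in the outer zone and the highest in the other zones.

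A window of the same width at the same distance on the other side of the globin genes, 32299916 to 32679915, was used to compare the sides. Control had 2804, 2617 and 2291 per 100000 chr11 reads there, R1R2_KO 5053, 4635 and 4836 and R2R3_KO 3088, 3483 and 3236. Upstream over downstream reads came to 1.48 ± 0.131 in control, 1.09 ± 0.0342 in R1R2_KO and 1.65 ± 0.123 in R2R3_KO (SD, n = 3 each). The log2 ratio was lower by -0.43 in R1R2_KO than in control (SE 0.08) and every R1R2_KO library lay below every control, at the two-sided exact permutation limit of p = 0.1. In R2R3_KO it differed from control by 0.16 (SE 0.10, exact permutation p = 0.3) and from R1R2_KO by 0.59 (SE 0.07, p = 0.1, exact). The single knockouts had ratios of 1.54 to 1.99 and ES cells 1.04.

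Over the whole flank the single knockouts stood between control and the double knockouts on the chr11 scale. With the far scale they had 13250 to 16687 and overlapped all 3 groups. By zone the chr11-scale order did not always hold. In the inner zone the single knockouts, at 944.9 to 1182, overlapped control at 945.2 to 1049. In the outer zone, at 2014 to 2334, they overlapped R1R2_KO at 2050 to 2511. They have 1 library each and lie in the other table, so no test was made. Their flank values were 4714 in R1_KO (95% Clopper-Pearson interval 4649 to 4781), 4614 in R2_KO (4529 to 4699), 4326 in R3_KO (4258 to 4395), 4202 in Rm_KO (4133 to 4273) and 4383 in R4_KO (4314 to 4453) per 100000 chr11 reads. These intervals cover counting error only. R1_KO and R2_KO overlapped each other in these intervals, as did R3_KO with Rm_KO and with R4_KO. The median over the 38 bins of the ratio to the control mean was 1.48 in R1_KO and 1.18 to 1.24 in the other four.

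R1_KO was the highest of the 5 in 18 of 38 bins on the chr11 scale and in 11 on the far scale, where R2_KO was the highest in 17. The order of the single knockouts therefore turned on the scale. Ranks were counted in the flank alone, so they do not set it apart from the chromosome. In the middle zone R1_KO had 1367 per 100000 chr11 reads and the other four 1146 to 1200. Per 100000 far reads R1_KO had 4341 and R2_KO 4311. R1_KO had the lowest ratio of outer to middle zone reads per bin, 4.23, where the other four had 4.48 to 5.22. In the 31.83 Mb bin the 5 libraries had 65.6, 64.2, 65.0, 51.4 and 46.4 in the order R1_KO, R2_KO, R3_KO, Rm_KO and R4_KO, all above the controls of the other table at 33.4 to 37.8 and below R1R2_KO.

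ES cells, in which the globin genes are silent, had the most flank contact of any library and only a small rise at the far end, from 103 per 100000 chr11 reads in the 31.80 Mb bin to 160 in the 31.77 Mb bin and back to 105 in the outermost bin. The flank held 10075 per 100000 chr11 reads (95% Clopper-Pearson interval 9994 to 10156) and 32034 per 100000 far reads. A bin was called in ES cells if its value was at least 1.5 times the mean of the 5 single knockouts, or that far below it, and lay outside all 5. On the chr11 scale 28 of 38 bins were called higher and 6 lower, beside 21.2% and 31.2% of the 3128 chromosome 11 bins that had at least 60 reads. Per far reads 27 were higher, beside 20.6%, and 6 lower, beside 32.6%. With 1 library there is no replicate check and no test.

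The higher bins were 23 of the 24 in the middle zone and all 5 in the inner zone, and the lower ones were in the outer zone. The 31.96 Mb bin had the highest ratio, 7.92: 317 per 100000 chr11 reads in ES cells against 34.8, 31.5, 44.0, 46.9 and 43.1 in R1_KO, R2_KO, R3_KO, Rm_KO and R4_KO. The bin starting at 31950001 followed at a ratio of 7.72, with 269 in ES cells, and the 31.97, 31.88 and 31.92 Mb bins had ratios of 6.92, 6.82 and 6.60. At the far end the 31.73 Mb bin, the richest in control, had 152 in ES cells against 323, 423, 429, 374 and 353, a ratio of 0.399. The 31.74 Mb bin had 140 against 272 to 336, a ratio of 0.460, and the 31.77 and 31.72 Mb bins and the outermost bin had 0.512, 0.520 and 0.544. Far-scale ratios kept these directions, from 7.69 for the 31.96 Mb bin to 0.385 for the 31.73 Mb bin.

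Within the ES library contact declined from zone to zone with distance. Per bin the inner zone held 3.10 times the reads of the middle zone and 5.02 times those of the outer zone, where the single knockouts had 3.82 to 4.62 and 0.776 to 0.983. The outer zone held 0.618 times the reads per bin of the middle zone, against 4.23 to 5.22 in the single knockouts. The middle zone took 53.3% of ES flank reads and 25.8% to 29.0% in the single knockouts. The downstream window was also higher, at 9669 per 100000 chr11 reads in ES cells against 2178 to 3058 in the single knockouts.

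The gains of the double knockouts and of ES cells were then set side by side. These contrasts share no library, since the knockouts were compared with control and ES cells with the single knockouts. Of the 19 bins that rose in R1R2_KO on the chr11 scale 16 were also higher in ES cells, which is 84.2% of the knockout list and 57.1% of the ES list, where 73.7% of all flank bins were higher in ES cells. Of the other 3, the outermost bin was lower in ES cells and the 31.78 and 31.79 Mb bins were not called. All 4 bins that rose in R1R2_KO on the far scale were higher in ES cells, as were 71.05% of all flank bins on that scale. These 4 are 14.8% of the ES list. The 1 bin that fell, 31.74 Mb, was among the 6 lower in ES cells. Across the 38 bins the log2 changes had Pearson r = 0.46 and Spearman rho = 0.41, a description only, since bins share libraries and depth and low bins rest on few reads.

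For R2R3_KO, 10 of the 15 bins that rose on the chr11 scale were higher in ES cells and 5 were lower. The 10 bins are 35.7% of the ES list and 66.7% of the knockout list, below the 73.7% of all flank bins higher in ES cells. There was no far-scale rise to match. Pearson r over the 38 bins was 0.23 and Spearman rho 0.34. The shared controls leave no separate comparison of the R1R2_KO and R2R3_KO figures.

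The 5 highest bins of R1R2_KO and of ES cells had 2 in common, 31.88 and 31.97 Mb. The 31.82 and 31.83 Mb bins, high in R1R2_KO, had ES ratios of 2.24 and 2.03, below the flank median of 3.43. The bins with the highest ES ratios, 31.96 Mb and the bin starting at 31950001, had log2 changes of 0.67 and 0.65 in R1R2_KO (edgeR adjusted p = 0.0502 and 0.104), and in R2R3_KO the latter had -0.26. With each library's flank reads as the scale, 19 of 38 bins (50.0%) were higher in ES cells, and only 2 of the 7 bins that gained a part of the flank in R1R2_KO were among them (28.6%), while 1 was lower and 4 were not called. The bin that lost a part of the flank in R1R2_KO, 31.74 Mb, was also lower in ES cells. In absolute terms the double knockouts stayed far from ES cells. The middle zone in R1R2_KO, at 1830 ± 68.9 (SD, n = 3), was 1.96 times control. In ES cells, at 5365, it was 4.40 times the single knockout mean. These folds have different baselines. Against the control mean, which is of another table than ES cells, the log2 ratio was 2.52 in ES cells and 0.97 in R1R2_KO.

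**Figure D4:**
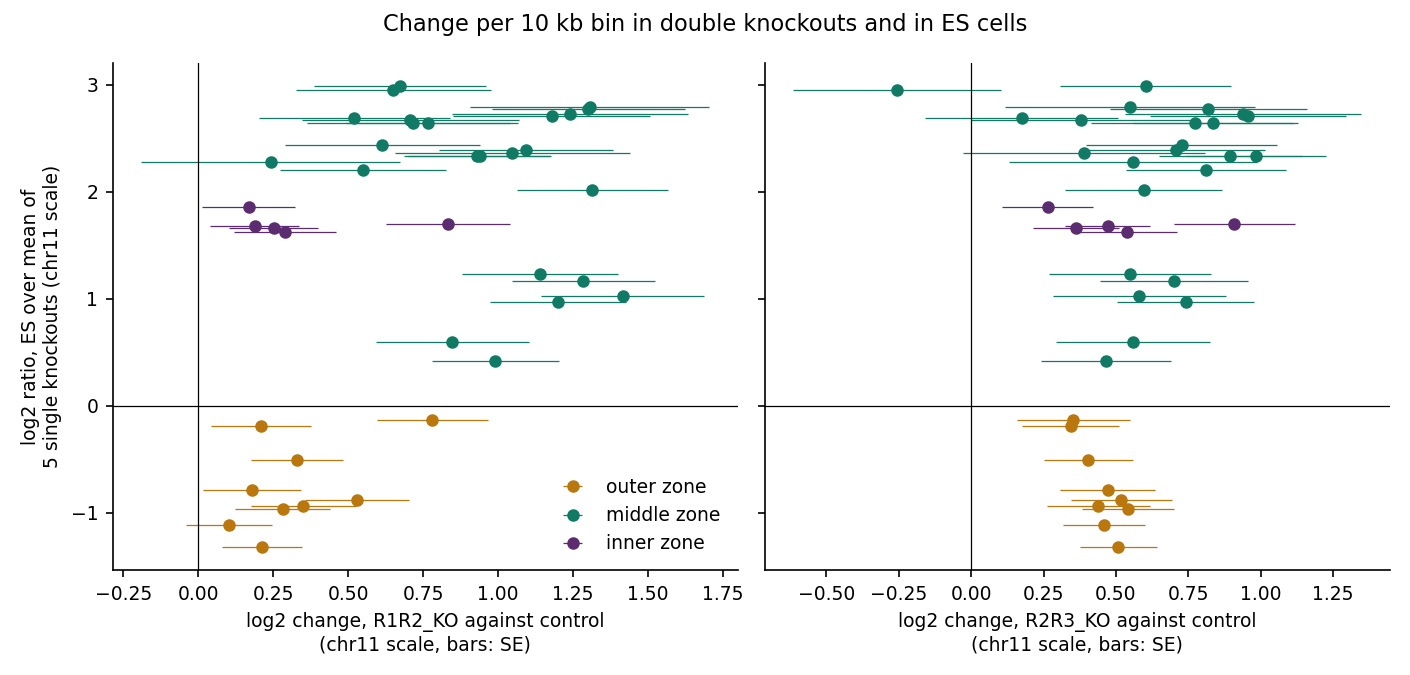
Log2 ratio of ES cells to the mean of the 5 single knockouts against the log2 change in each double knockout (chr11 scale, bars: SE), one point per 10 kb bin, coloured by zone. In R1R2_KO the outer zone spans 0.10 to 0.78 and lies below 0 on the ES axis. The inner zone spans a similar 0.17 to 0.83 but lies above 0 on the ES axis, and the middle zone spreads from 0.24 to 1.42. In R2R3_KO the outer and middle zones overlap along the horizontal axis.

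In bins of 5 kb, which hold fewer reads each, the R1R2_KO counts no longer stood above the chromosome. The set compared changed too. The read filter left 284 bins of 5 kb, 70 of them in the flank, and 391 bins of 10 kb, 38 of them in the flank. Of the 70 flank bins with enough reads, 31 rose in R1R2_KO (beside 50.0% of the 284 bins tested) and 17 in R2R3_KO (beside 17.3%) on the chr11 scale, and 3 (beside 5.63%) and none (beside 1.06%) on the far scale, where 18 and 5 had an unadjusted p under 0.05 in edgeR. Per far reads 2 fell in R1R2_KO (beside 13.7%), of which none was lower in ES cells and 1 was higher. Between the double knockouts edgeR called none on the chr11 scale (beside 5.99% either way), with 11 at an unadjusted p under 0.05. No share over the chromosome is given for the counts at unadjusted p, so they do not set the flank apart. In ES cells 49 of these 70 were higher, with no share over the chromosome given at this bin width. They held 23 of the 31 R1R2_KO bins (74.2%) and 10 of the 17 R2R3_KO bins (58.8%), where 70.0% of all 70 were higher in ES cells.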

How the data were processed

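The tables the authors deposited hold unscaled counts of reads for each DpnII fragment. The submitters' processing notes name mm9, Trim Galore and Bowtie; their versions, and the handling of reads common to Hba-a1 and Hba-a2, are not given in the sources used here. Another 7 columns of the α-globin data match no sample here and were not used.

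Viewpoints were the gaps of at least 1500 bp left by the tables at the captured promoters. Counts were summed in bins of 10 kb (5 kb as an alternative) and in windows of 380 kb. Bins with 90 or more reads over the 9 replicated libraries were tested with edgeR 4.0.16 (glmQLFit, glmQLFTest; all 3 groups in 1 fit, the stated reads as library size) in R 4.3.3, with Benjamini-Hochberg adjustment over all chromosome 11 bins or windows tested and a threshold of 0.05. SEs are of log2 changes. DESeq2 1.42.0, TMM factors, other scales, a block for the replicate number and omission of each library were alternatives. On simulated counts of R1R2_KO against control, 17.5% of 10 kb bins changed by a log2 of 0.5 and 44.7% of those changed by 1 were recovered (391 bins), and 21.4% and 84.6% of windows (274). Bins that did not pass may therefore have changed. Replicates of 1 group differed by more than sampling noise (chi-square over degrees of freedom 1.73 to 2.53), so none was taken as a repeated library. Reads were not counted by molecular identifiers, and intervals cover counting error only.

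Named bins were the 5 highest and 5 lowest log2 changes of each contrast, the 5 highest and lowest ES ratios and the 3 bins richest in control; other bins named, and the zones, were chosen after their values were seen. The members, bins and tests were chosen with earlier results of these data known.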

Additional observations from a re-analysis of the deposited data

How the results depend on the processing

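The scale changed most calls, and the fits that set their own scale gave results like the far scale. The whole flank changed in R1R2_KO by -0.037 on the far scale, -0.042 with TMM, 0.0066 with DESeq2, and -0.00073 and -0.11 for its outer 250 and inner 130 kb on the far scale (log2). In R2R3_KO these were 0.084, 0.062, 0.089, 0.078 and 0.096. R2R3_KO against R1R2_KO gave -0.044 on the scale of reads within 500 kb, -0.086 with all chromosomes and -0.022 for the outer 250 kb. Called bins in R1R2_KO numbered 5 on the far scale, 37 within 500 kb, 8 with TMM (4 higher, 4 lower), 2 with DESeq2 (1 each way), 31 of 70 at 5 kb and 10 with no read filter, which tests more bins. In R2R3_KO they numbered 0 on the far scale, with TMM and with DESeq2, 32 within 500 kb and 1 with no filter. Between the double knockouts they numbered 7 with all chromosomes (all lower in R2R3_KO), 6 with TMM and 5 with DESeq2 (all higher), and 0 at 5 kb and with no filter. Shares over all chromosome 11 bins are not given for reads within 500 kb, all chromosomes, TMM, DESeq2 or no filter. Those counts therefore show only how calls move with the setting, not whether the flank stands apart. The ES list had 55 of 76 bins at 5 kb, likewise with no share over the chromosome. Bins higher in both numbered 4 (R1R2_KO) and 0 (R2R3_KO) on the far scale.

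The bins lowest in R1R2_KO turned below 0: 31.74, 32.05, 31.71, 32.06 and 31.75 Mb gave -0.42, -0.36, -0.34, -0.34 and -0.31 on the far scale, -0.49, -0.42, -0.41, -0.40 and -0.38 with TMM, and -0.47, -0.41, -0.40, -0.39 and -0.38 with DESeq2. In R2R3_KO, 31.93, 32.05, 31.75 and 31.78 Mb gave -0.24, -0.16, -0.072 and -0.068 on the far scale and -0.19, -0.11, -0.024 and -0.018 with TMM; 31.93 and 32.05 Mb gave -0.16 and -0.069 with DESeq2. The cause was not tested.

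Leaving out 1 library gave 15 to 20 called bins in R1R2_KO, 5 to 14 in R2R3_KO and 0 to 3 between them, and 4 to 8, 0 and 0 to 5 against the flank total. The flank changes ran from 0.44 to 0.51, 0.49 to 0.52 and -0.0063 to 0.071, and upstream over downstream from -0.49 to -0.36, 0.10 to 0.22 and 0.53 to 0.64. The 31.75 Mb bin in R1R2_KO ran from -0.14 to 0.36 and the bin starting at 31950001 in R2R3_KO from -0.41 to 0.078. ES bins ran from 27 to 28. The replicate numbers gave no sign of pairing: same-numbered libraries had correlations of -0.06 to 0.09 in their deviations, and differently numbered ones -0.16 to 0.16. Deviations from means of only 3 libraries cannot settle whether same-numbered libraries share a batch. With the replicate block 20, 16 and 2 bins were called, the flank changes were 0.49, 0.51 and 0.02, and against the flank total 8, 0 and 8 bins were called, the last in place of 5. Chr11 bins of the middle zone hold 19.3 to 75.1 reads per 100000 in control, which limits what single bins can show. The far-scale split of the flank, the flank reads as a scale for ES cells, and the omissions and block on the far scale or against the flank total were added after seeing the data.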
